A study of Mus musculus with 14 samples.

Results

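The 10 cytokine receptor genes followed here in regulatory T cells (Tregs) were Ifngr1 and Ifngr2, Il2rg, Il7r, Il4ra and Il21r, Il6ra and Il10ra, and Il1r2 and Il18r1. They were taken by gene name from the deposited expression values and are 10 of 22255 genes. All 10 were found. Tregs, the CD4 T cells that hold immune responses in check, depend on the transcription factor Foxp3, and the RNA of cells positive for Foxp3-YFP was sequenced with Smart-Seq2 in 14 low-input libraries. The mice were 8 weeks old. KO tumor (3 libraries, replicates 1, 2 and 3) held Tregs from Yumm1.7 melanomas, a transplantable mouse melanoma line, of mice of the strain CD36floxed FoxP3-YFPCre+/-, with the genotype given as CD36 KO. WT tumor (3 libraries, replicates 2, 3 and 4) held Tregs from the same tumor in FoxP3-YFPCre+/+ mice, and lymph node (LN, 4 libraries) and spleen (4 libraries) held Tregs of FoxP3-YFPCre+/+ mice. All 4 groups thus carry the YFP-Cre allele of Foxp3, and Cre is made where Foxp3 is expressed. As written, the strains differ in this allele too, +/- in KO tumor and +/+ in the other groups. KO against WT tumor thus differs in the Cd36 genotype and in the Foxp3 allele label, which cannot be told apart here. KO libraries of LN or spleen were not analysed here, so the KO tumor comparisons with those tissues differ in both tissue and genotype. The design asks how Treg transcriptomes differ between tissues and between the tumor genotypes. The labels do not say that replicates came from separate animals, and the p-values below therefore reflect the spread among these libraries alone, part or all of which may be technical.

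Cytokine receptors are built from chains that bind the ligand and chains that carry the signal. The interferon gamma receptor needs both of its chains, IFNGR1, which binds the ligand and JAK1, and IFNGR2, which brings JAK2. The common gamma chain, encoded by Il2rg, brings JAK3 to the receptors for IL-2, IL-4, IL-7, IL-9, IL-15 and IL-21, whose other chains decide which ligand is bound. IL-2 signalling through this chain and STAT5 maintains Tregs, which usually carry less of the IL-7 receptor alpha chain than conventional T cells do. The IL-6 and IL-10 receptors act mainly through STAT3, and the IL-18 receptor acts through MyD88, while IL1R2 is a decoy that binds IL-1 without signalling.

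The upstream sequences of the interferon gamma receptor genes are shown because in the tumor libraries Ifngr1 was the highest of the 10 transcripts and Ifngr2 was the lowest or next to lowest. RefSeq windows of 250 bases before the transcript start (GRCm38.p6) were matched for 9 of the 10 genes. Capitals mark the GC box GGGCGG on either strand, and in Ifngr2 the last 2 matches share 1 base. The Ifngr1 window lies at chr10:19591699-19591948 on the plus strand and the Ifngr2 window at chr16:91546809-91547058 on the plus strand.
Ifngr1: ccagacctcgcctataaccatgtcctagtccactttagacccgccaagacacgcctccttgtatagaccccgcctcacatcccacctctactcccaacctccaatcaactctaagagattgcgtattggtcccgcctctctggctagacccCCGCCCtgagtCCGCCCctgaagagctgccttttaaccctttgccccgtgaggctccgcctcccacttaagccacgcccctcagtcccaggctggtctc
Ifngr2: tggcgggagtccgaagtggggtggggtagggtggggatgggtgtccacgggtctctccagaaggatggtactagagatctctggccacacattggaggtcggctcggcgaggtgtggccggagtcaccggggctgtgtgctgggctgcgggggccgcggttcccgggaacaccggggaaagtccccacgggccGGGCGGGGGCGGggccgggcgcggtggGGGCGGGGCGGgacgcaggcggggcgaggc
The Ifngr1 window held 2 GC boxes and 59.2% G or C, and the Ifngr2 window held 4 and 74%, a G and C share above that of 95.1% of 32851 windows. A GC box was in 32.7% of all windows. Neither window held TTCNNNGAA, the gamma-activated site (7.02% of windows), TGANTCA, the AP-1 site (6.75%), TGACGTCA, the cyclic AMP response element (1.55%), or TATAAA (12.4%), each searched on both strands. These matches describe letters only.

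Estimated depth was 10.7 to 21.5 M reads per library. All 9 Treg-defining transcripts were detected in each group, and Foxp3 stood at 42.4, 41.7 and 25.7 FPKM in KO tumor, 11.96, 3.54 and 11.97 FPKM in WT tumor, 32.3, 23.6, 15.4 and 25.4 FPKM in LN and 21.1, 16.9, 27.8 and 8.67 FPKM in spleen. FPKM, the fragments of a gene scaled by transcript length and library total, is a share of each library. Cd36, the targeted gene, was listed at 0, 1.06 and 0 FPKM in KO tumor, at 0 in every WT tumor and LN library, and at 0, 0.598, 4.47 and 2.17 FPKM in spleen, so it could not check the KO label. The 12 macrophage or monocyte markers summed to 247 to 265 FPKM in KO tumor, 0.993 to 29.7 in WT tumor, 3.85 to 36.0 in LN and 226 to 483 in spleen, with Cd14 at 0 in all libraries of KO tumor, LN and spleen. The 20 immediate early and heat shock genes, 18 of them in the files, summed to 3450 to 4057 FPKM in KO tumor, 4524 to 5590 in WT tumor, 953 to 1265 in LN and 1616 to 1857 in spleen. Conventional helper T cell and Treg-defining sums were also higher in the tumor groups, the second at 845 to 991 FPKM in KO tumor, 779 to 938 in WT tumor, 465 to 542 in LN and 488 to 640 in spleen. The first includes Ifng, at 108 to 236 FPKM in KO tumor and 42.5 to 166 in WT tumor, and at most 23.8 in LN and spleen. Markers of CD8 T or NK cells summed to 36.7 to 108 FPKM in KO tumor, 60.6 to 198 in WT tumor, 0.172 to 93.8 in LN and 8.55 to 114 in spleen, and those of B cells to 19.4 to 67.8 FPKM in KO tumor, 7.46 to 100.3 in WT tumor, 49.6 to 68.3 in LN and 75.8 to 326 in spleen. Erythroid transcripts summed to 63.3 to 16427 FPKM in KO tumor, 225 to 11899 in WT tumor, 79.0 to 1191 in LN and 2976 to 7079 in spleen, whereas melanoma markers stayed at or below 3.73 FPKM, neutrophil markers at or below 9.22, mast cell and group 2 innate lymphoid markers at or below 4.96, fibroblast or endothelial markers at or below 17.8 and dendritic cell markers at or below 23.2 FPKM in every library. In bulk RNA, fewer cells of a type and less RNA per cell cannot be told apart. The part of these markers in the receptor results was not tested, also where marker sums are given beside a receptor.

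Across the 4 groups the receptor transcripts covered nearly the whole range of expression. In the tumor groups Ifngr1 had the highest level, averaging 601 FPKM in KO tumor and 855 FPKM in WT tumor, above 98.3% and 98.6% of genes with a mean of at least 1 FPKM in those groups. In LN and spleen Il2rg had the highest mean, at 188 and 160 FPKM, ahead of Ifngr1 at 116 and 150 FPKM. Il7r had group means of 63.3 to 139.6 FPKM, and Il21r, Il10ra, Il18r1, Il6ra, Il1r2 and Il4ra had group means of 2.43 to 64.2 FPKM. Ifngr2 had the lowest group means, at or below 1.22 FPKM. In the plot of levels by library the tumor points of Ifngr1 stand apart from the lymphoid points, and most other panels overlap.

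**Figure D1:**
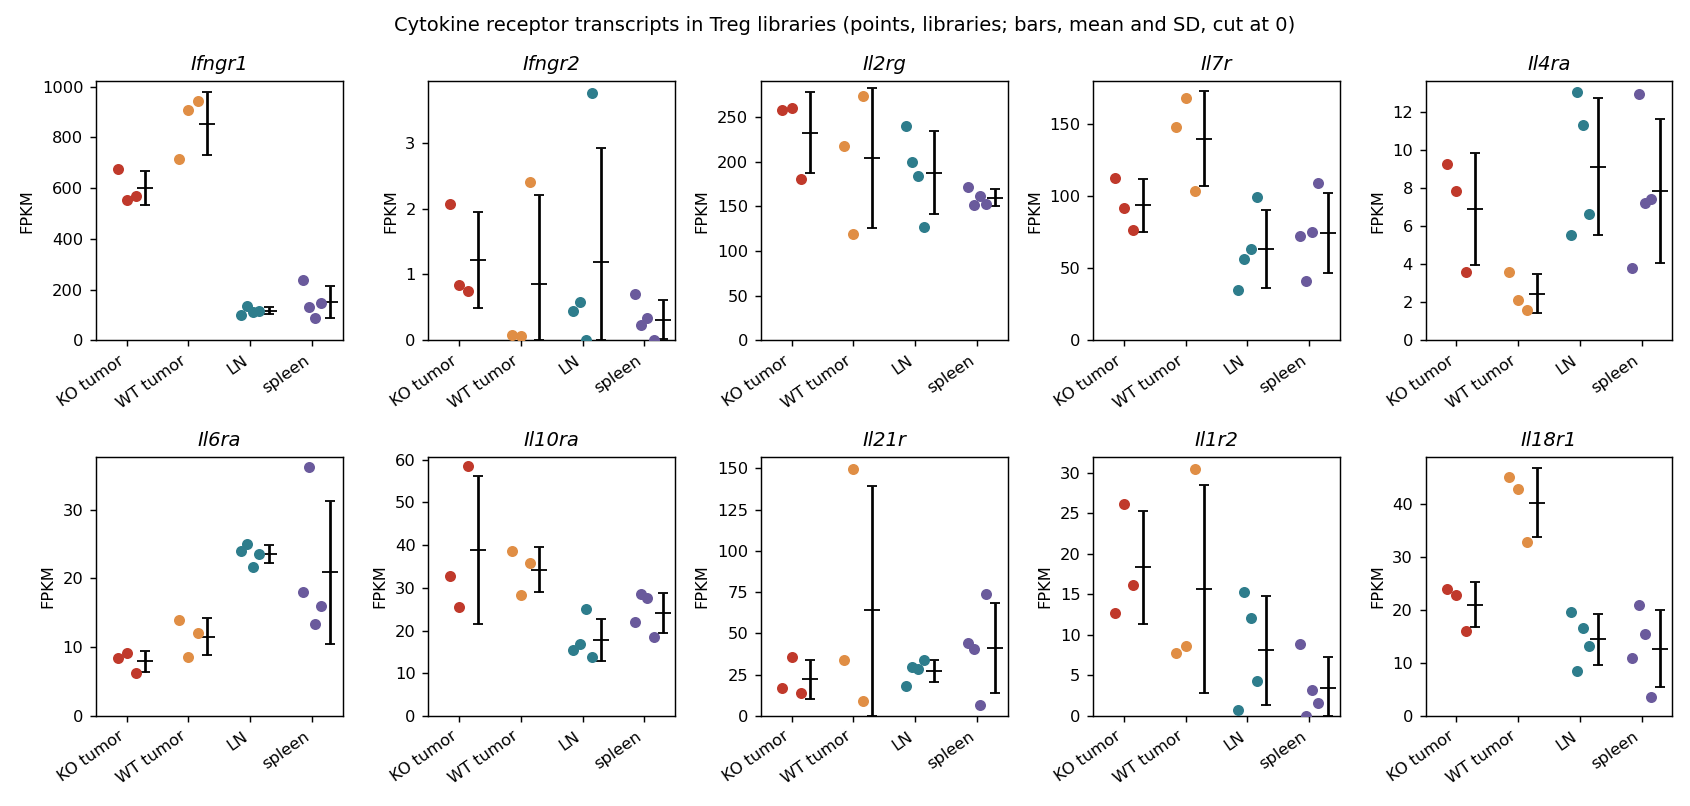
FPKM (y axis, from 0) of the 10 receptor genes in KO tumor, WT tumor, LN and spleen (x axis); points are libraries and bars, drawn no lower than 0, the mean and SD (n = 3, 3, 4 and 4). Ifngr1 is at 555 to 943 FPKM in the 6 tumor libraries and at 87.3 to 236 FPKM in the 8 lymphoid libraries, and it is the one member whose tumor values all lie above the lymphoid values.

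Ifngr1 (ENSMUSG00000020009, chromosome 10, 19591949 to 19610229, GRCm38), the ligand-binding chain of the interferon gamma receptor, was higher in Tregs of both tumor groups than in Tregs of either lymphoid tissue. It stood at 677, 555 and 570.4 FPKM in KO tumor and 714, 907 and 943 FPKM in WT tumor. The LN values were 101, 135, 113 and 115 FPKM, and the spleen values were 236, 130.5, 87.3 and 145 FPKM. Every tumor library lay above every lymphoid library, a pattern found in 1.8% of 10147 genes. WT tumor averaged 855 ± 123 FPKM (SD, n = 3) against 150 ± 62.7 FPKM in spleen (n = 4), a ratio of 5.70. The difference on the log2(FPKM + 1) scale was 2.58 ± 0.29 (SE), with adjusted p = 0.000617 in limma over 9616 genes. Against LN, at 116 ± 13.9 FPKM (n = 4), WT tumor was 7.38 times as high, a log2 difference of 2.87 ± 0.29 (adjusted p = 0.000105). The macrophage marker sums of these 2 groups overlapped, as given above, and the sums of immediate early and heat shock genes did not.

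KO tumor averaged 601 ± 66.5 FPKM of Ifngr1 (n = 3), which was 4.01 times the spleen mean and 5.18 times the LN mean. The log2 differences were 2.08 ± 0.26 over spleen (limma adjusted p = 0.000407 over 10147 genes) and 2.37 ± 0.26 over LN (adjusted p = 0.000139). KO tumor and spleen both had macrophage marker sums above 225 FPKM. These comparisons and those of WT tumor share the LN and spleen libraries. All 4 differences kept their call when any 1 library was left out, with adjusted p up to 0.00544.

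Between the tumor genotypes, Ifngr1 did not pass the threshold. The 3 KO values of 677, 555 and 570.4 FPKM lay below the 3 WT values of 714, 907 and 943 FPKM, with KO tumor 1 and WT tumor 2 the closest pair. The log2 difference was -0.50 ± 0.19 (unadjusted p = 0.0233 in limma, adjusted p = 0.470), with a 95% interval of -0.92 to -0.09. The exact permutation test gave p = 0.1, the smallest that 3 libraries against 3 allow. Foxp3 was higher in KO tumor than in WT tumor in these libraries without passing the threshold (2.01 ± 0.61, adjusted p = 0.338), and C1qb and Tyrobp, a complement gene and an adaptor gene of myeloid cells, passed it (5.46 ± 0.65, adjusted p = 0.00952, and 5.08 ± 0.67, adjusted p = 0.0158). LN and spleen overlapped for Ifngr1, with a difference of -0.29 ± 0.27 (adjusted p = 0.793). By mean level the order was WT tumor, KO tumor, spleen and LN, and the last 2 did not differ beyond their spread.

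Ifngr2 (ENSMUSG00000022965, chromosome 16, 91547072 to 91565623), the chain that completes the interferon gamma receptor, was low in all 4 groups, and 4 libraries were at 0 or near the detection limit. It stood at 2.07, 0.838 and 0.752 FPKM in KO tumor and 0.0859, 0.0686 and 2.41 FPKM in WT tumor. It stood at 0.447, 0.577, 0 and 3.75 FPKM in LN and 0.699, 0.225, 0.334 and 0 FPKM in spleen. The 2 lowest WT tumor values correspond to about 3.41 and 3.42 reads, and 3 reads would give 0.0376 to 0.0755 FPKM, so the libraries at 0 allow a level up to such a value (counting error only). All groups overlapped except KO tumor and spleen, where the 3 KO values were above the 4 spleen values. That comparison gave 0.73 ± 0.58 in limma (adjusted p = 0.644) and exact p = 0.0571, with 0.0286 the smallest p that 3 against 4 allow. Too few libraries of the other fits reached 1 FPKM for Ifngr2 to enter them, and exact tests gave p = 0.714 for WT tumor against spleen, p = 0.743 for WT tumor against LN, p = 0.6 for KO against WT tumor and p = 0.457 for LN against spleen (two-sided permutation tests, n = 3 or 4 a group).

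The Ifngr1 transcript accounted for most of the summed level of the 10 genes in the tumor libraries. Its share of the sum was 53.6 to 60.6% in KO tumor and 58.4 to 65.3% in WT tumor, against 22.0 to 27.0% in LN and 21.9 to 40.1% in spleen. The sum itself was 942 to 1153 FPKM in KO tumor, 1223 to 1445 FPKM in WT tumor, 441 to 499 FPKM in LN and 398 to 589 FPKM in spleen.

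**Figure D2:**
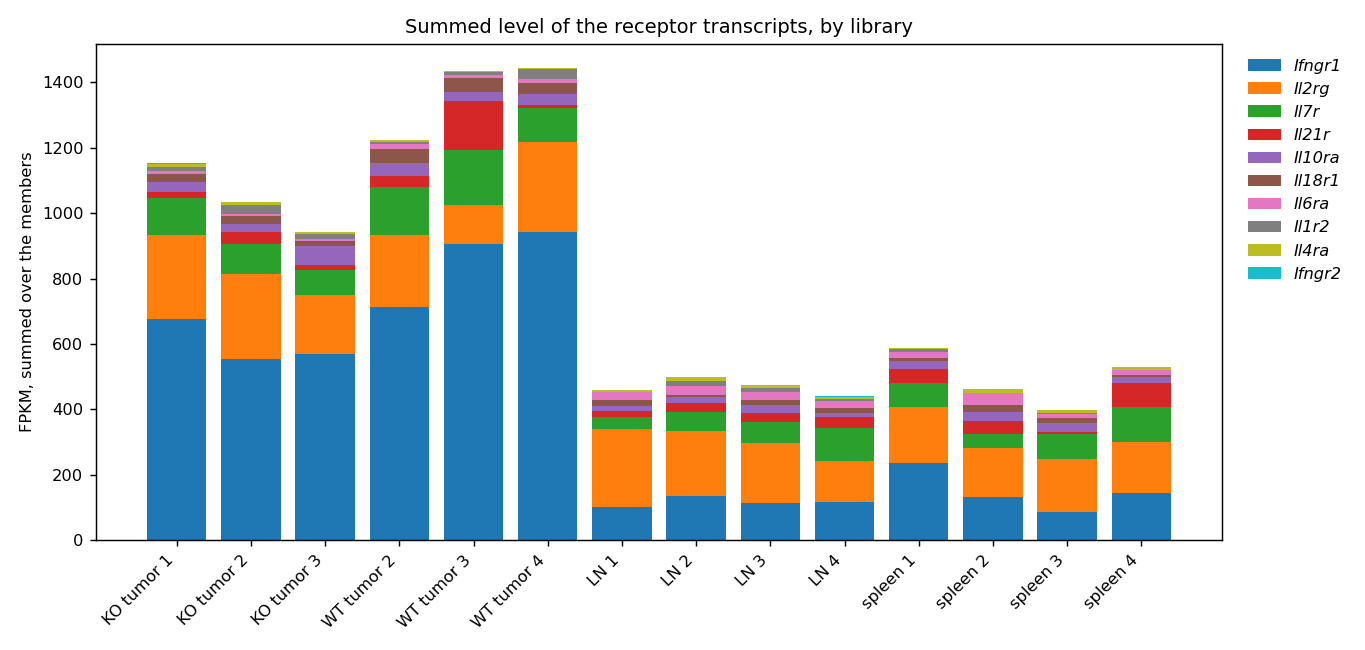
Summed FPKM of the 10 receptor genes (y axis) in each of the 14 libraries (x axis), each bar stacked by gene with the key in order of mean level. The Ifngr1 segment at the base of each bar is 53.6 to 65.3% of the bar in the 6 tumor libraries and 21.9 to 40.1% in the 8 lymphoid libraries.

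Among the chains that work with the common gamma chain, none passed the threshold in any comparison. Il2rg (chromosome X, 101264378 to 101268255), the common gamma chain itself, stood at 258, 259.9 and 180.4 FPKM in KO tumor and 218, 119 and 274 FPKM in WT tumor. It stood at 240.4, 199.8, 184 and 127 FPKM in LN and at 172, 152, 162 and 153 FPKM in spleen. All neighbouring groups overlapped in the order KO tumor, WT tumor, LN and spleen, although the 3 KO tumor values were above the 4 spleen values (0.52 ± 0.29, adjusted p = 0.446). For WT tumor against LN the estimate was 0.07, with a 95% interval of -0.56 to 0.71, and its sign turned under other scalings. Il2rg shares exon sequence with the annotated gene Gm20489 on the same strand, so the assignment of its reads is uncertain.

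Il7r (chromosome 15, 9505788 to 9530176), which binds IL-7 together with the common gamma chain and TSLP together with CRLF2, had 112, 91.3 and 76.2 FPKM in KO tumor and 148, 168 and 103 FPKM in WT tumor. It had 34.5, 56.1, 63.5 and 99.1 FPKM in LN and 71.9, 40.9, 74.9 and 109 FPKM in spleen. The WT tumor values lay above all LN values, and the WT tumor difference from LN was 1.20 ± 0.40 (unadjusted p = 0.0105, adjusted p = 0.152). The spleen and KO tumor ranges overlapped with the WT tumor range, and KO tumor differed from WT tumor by -0.57 ± 0.33 (adjusted p = 0.720). The list of conventional helper T cell markers, which includes Ifng, summed to 220 to 356 FPKM in KO tumor and 266 to 315 FPKM in WT tumor, against 120 to 187 FPKM in LN and 93.8 to 135 FPKM in spleen. Of the 7 helper T cell markers, 2 were called higher and 1 lower in KO tumor against LN (2.11% and 1.31% of all genes). Against spleen the KO tumor counts were also 2 and 1 (1.64% and 1.16% of all genes). In WT tumor 1 was called higher against LN (1.89%) and 2 against spleen (1.2%), with 0 lower (1.14% and 0.707%). The part of helper T cells in the Il7r values was not tested.

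Il4ra (chromosome 7, 125552120 to 125579474), the chain shared by the IL-4 and IL-13 receptors that activates STAT6, was lowest in WT tumor. It stood at 9.25, 7.84 and 3.60 FPKM in KO tumor and 3.58, 2.11 and 1.61 FPKM in WT tumor. It stood at 5.53, 13.02, 11.3 and 6.63 FPKM in LN and at 3.79, 12.9, 7.22 and 7.42 FPKM in spleen. WT tumor did not overlap with any of the other groups, with KO tumor 3 and WT tumor 2 nearly touching. None of these differences passed the threshold, at -1.53 ± 0.57 against LN (adjusted p = 0.206), -1.31 ± 0.57 against spleen (adjusted p = 0.322) and 1.16 ± 0.71 for KO against WT tumor (adjusted p = 0.736). Reads of the antisense gene Gm44876, which overlaps an exon, cannot be told apart from Il4ra without strand.

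Il21r (chromosome 7, 125603429 to 125633570), the ligand-binding chain for IL-21, starts 23954 bases beyond the end of Il4ra on the same strand. Its values were 17.2, 35.7 and 13.7 FPKM in KO tumor and 33.9, 149.5 and 9.31 FPKM in WT tumor, against 18.1, 29.4, 28.3 and 33.8 FPKM in LN and 44.1, 40.4, 6.76 and 73.6 FPKM in spleen. The WT tumor libraries alone spanned almost the whole range of the 14, and no comparison separated the groups. Its spread within groups was wide, with a pooled SD of 1.22 on the log2 scale, above that of 81.5% of 1776 genes of like level, while Il4ra with 0.56 was above only 8.07% of 3642 genes. The differences of Il21r ran from -0.82 ± 0.89 for KO against WT tumor to 0.45 ± 0.84 for WT tumor against LN (adjusted p = 0.866 and 0.849), with 95% intervals of -2.83 to 1.18 and -1.36 to 2.25.

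The receptors that signal mainly through STAT3 differed between tumor and LN in opposite directions, without passing the threshold. Il6ra (chromosome 3, 89864059 to 89913196), the ligand-binding chain of the IL-6 receptor, stood at 8.40, 9.12 and 6.25 FPKM in KO tumor and 13.9, 8.64 and 12.1 FPKM in WT tumor. It stood at 24.0, 24.9, 21.7 and 23.6 FPKM in LN and at 18.0, 36.2, 13.4 and 15.9 FPKM in spleen. Both tumor groups lay below every LN library, KO tumor also lay below every spleen library, and WT tumor 2 and spleen 3 were the pair that overlapped between tumor and lymphoid libraries. The KO tumor difference from LN was -1.47 ± 0.43 (unadjusted p = 0.00369, adjusted p = 0.0845), the nearest to the threshold of any member other than Ifngr1. It passed with no filter on low values (adjusted p = 0.0448) and with array weights (adjusted p = 0.0335), and the alternatives other than leaving out a library gave 0.0335 to 0.126. KO tumor differed from spleen by -1.21 ± 0.43 (adjusted p = 0.185), WT tumor from LN by -0.99 ± 0.45 (adjusted p = 0.303) and WT tumor from spleen by -0.72 ± 0.45 (adjusted p = 0.510). Il6ra had one of the tighter spreads, with a pooled SD of 0.38 that was above that of 3.64% of 2828 genes of like level. An exon of Il6ra overlaps Gm42809 on the opposite strand.

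Il10ra (chromosome 9, 45253837 to 45269149), the ligand-binding chain of the IL-10 receptor, stood at 32.7, 25.5 and 58.4 FPKM in KO tumor and 38.7, 28.4 and 35.7 FPKM in WT tumor. It stood at 15.4, 16.9, 25.02 and 13.8 FPKM in LN and at 22.0, 28.5, 27.7 and 18.6 FPKM in spleen. Each tumor group was above every LN library, and both overlapped with spleen. The differences from LN were 1.03 ± 0.39 for KO tumor (adjusted p = 0.223) and 0.93 ± 0.40 for WT tumor (adjusted p = 0.271), and the tumor groups differed by 0.10 ± 0.47 (adjusted p = 0.977).

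The IL-1 family members lie on the same strand of chromosome 1, 340320 bases apart. Il18r1 (40465552 to 40500854), the ligand-binding chain of the IL-18 receptor, was highest in WT tumor. It stood at 24.0, 22.8 and 16.1 FPKM in KO tumor and 45.01, 42.9 and 32.8 FPKM in WT tumor, against 19.7, 8.48, 16.7 and 13.1 FPKM in LN and 10.9, 20.9, 15.4 and 3.63 FPKM in spleen. The WT tumor values overlapped with no other group, and KO tumor, LN and spleen overlapped with each other. The WT tumor differences were 1.79 ± 0.55 over spleen (unadjusted p = 0.00623, adjusted p = 0.136) and 1.46 ± 0.55 over LN (adjusted p = 0.211). KO tumor differed from WT tumor by -0.92 ± 0.45 (adjusted p = 0.639).

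Il1r2 (40074079 to 40125231), the decoy receptor, was the least even within groups beside Il21r, with a pooled SD of 1.22. It stood at 12.7, 26.1 and 16.2 FPKM in KO tumor and 7.81, 8.60 and 30.5 FPKM in WT tumor. It stood at 0.694, 15.3, 12.02 and 4.34 FPKM in LN and was listed at 8.86, 0, 3.17 and 1.53 FPKM in spleen. KO tumor lay above every spleen library (2.54 ± 0.86, adjusted p = 0.156), and WT tumor overlapped with spleen (2.12 ± 0.92, adjusted p = 0.319). Il1r2 is also expressed by neutrophils. The 8 neutrophil markers summed to 2.62 to 9.22 FPKM in KO tumor and 0.275 to 7.42 FPKM in WT tumor, against 0.0632 to 5.40 FPKM in LN and 0.221 to 3.05 FPKM in spleen. Of these, Cxcr2, Retnlg and Camp were at 0 in every library of all groups, and S100a8 in every tumor and spleen library. Mmp9 averaged 5.36 FPKM in KO tumor and 4.71 FPKM in WT tumor, against 1.42 FPKM in LN and 0.965 FPKM in spleen. The part of neutrophils in the Il1r2 values was not tested.

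Counted by comparison, 1 of 9 tested members passed the threshold for WT tumor against spleen, where 1.9% of all genes did, and 1 of 9 for WT tumor against LN, where 3.04% did. The count was 1 of 10 for KO tumor against spleen, with 2.8% of all genes, and 1 of 10 for KO tumor against LN, with 3.42%. Each of these calls was Ifngr1, in the higher direction, in which 1.2% and 1.89% of genes were called for WT tumor over spleen and LN and 1.64% and 2.11% for KO tumor over spleen and LN. No member was called lower, where the shares of all genes were 0.707% and 1.14% for WT tumor against spleen and LN and 1.16% and 1.31% for KO tumor against spleen and LN. None of 9 passed for KO against WT tumor, where 0.28% of genes were called (0.0974% higher and 0.183% lower), or for LN against spleen, where 0.499% were (0.146% higher and 0.354% lower). At an unadjusted limma p under 0.05 the members' counts were 1 of 9 for KO against WT tumor, with 8.64% of all genes, and 0 of 9 for LN against spleen, with 10.4%. For the tumor groups they were 5 of 9 for WT tumor against spleen (14.3% of all genes), 6 of 9 for WT tumor against LN (15.6%), 3 of 10 for KO tumor against spleen (13.9%) and 3 of 10 for KO tumor against LN (13.1%). The members were chosen with earlier results of these data known. These counts, and those of groups without overlap below, therefore only describe the members.

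Groups that did not overlap were more frequent than calls. For WT tumor against LN 4 of 9 members lay above and 2 below, where 8.02% and 8.95% of all genes did, 17% in all. For WT tumor against spleen 2 of 9 lay above and 1 below, where 5.73% and 5.8% did, 11.5% in all. For KO tumor against spleen 4 of 10 lay above and 1 below, with 7.05% and 6.4% of all genes, 13.4% in all, and against LN 2 lay above and 1 below, with 8.83% and 8.06%, 16.9% in all. For KO against WT tumor 1 of 9 lay above and 2 below, with 7.54% and 6.93% of all genes, 14.5% in all. For LN against spleen none of 9 did, with 3.87% above and 4% below, 7.87% in all. The median log2 difference of the tested members was 0.93 for WT tumor against LN and 0.50 for WT tumor against spleen, where the medians of all genes were -0.12 and -0.07. It was 0.56 for KO tumor against spleen and 0.43 for KO tumor against LN, with medians of all genes of 0.02 and -0.01. For KO against WT tumor it was -0.48 against 0.07, and for LN against spleen 0.20 against 0.02.

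**Figure D3:**
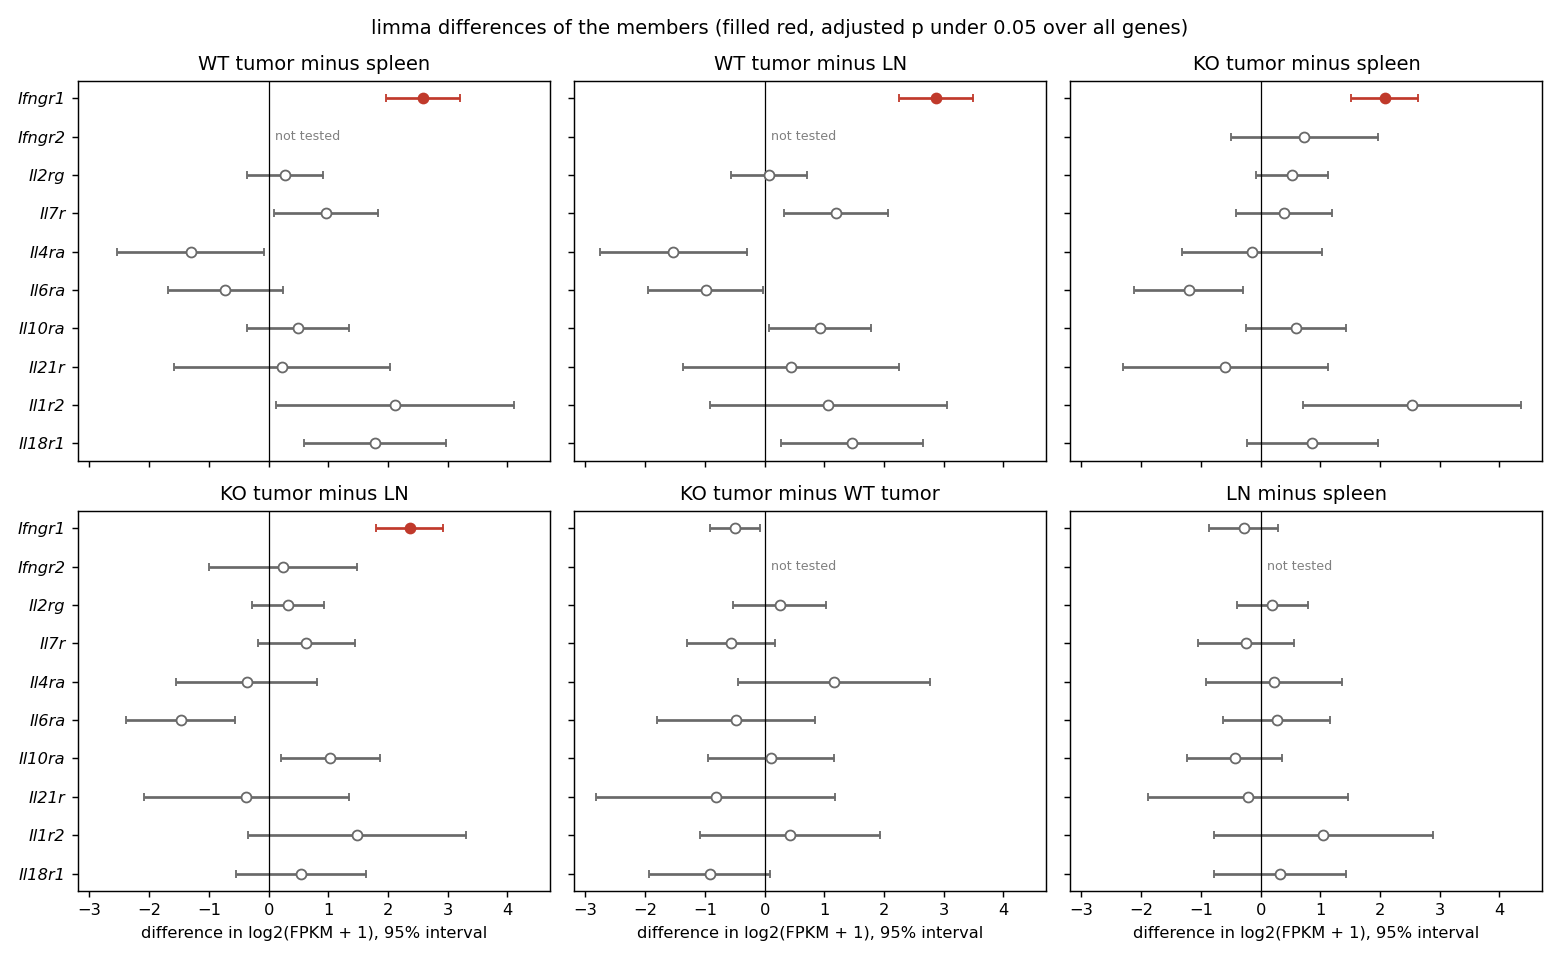
Differences in log2(FPKM + 1) of the tested receptor genes (x axis, points with 95% intervals) in the 6 comparisons, first group minus second; filled red points passed an adjusted p of 0.05 over all genes. Ifngr1 is filled in the 4 tumor against lymphoid panels, at 2.08 to 2.87, and every other point is open.

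For each member, the protein-coding genes with the most similar pattern of log2(FPKM + 1) over the 14 libraries were found among genes with a mean of at least 10 FPKM. The libraries share their groups and depth differences, so these correlations describe the 14 points only. Ifngr1 was nearest to Actg1, cytoplasmic gamma actin (r = 0.97), and Areg, the growth factor amphiregulin (r = 0.96). For deviations from the group means, r was 0.69 with Actg1 and 0.26 with Areg. For the pairs of the other members named below it was 0.47 (Il6ra with Rps20) to 0.90 (Il7r with Capn2). Actg1 averaged 1642 FPKM in KO tumor, 1709 in WT tumor, 787 in LN and 896 in spleen. Areg averaged 66.4 FPKM in KO tumor and 73.8 in WT tumor, against 0.0897 in LN and 0.817 in spleen. Il6ra was nearest to the ribosomal protein genes Rpl35 (r = 0.94) and Rps20 (r = 0.88), and Il18r1 to Ehd1 (r = 0.91), a gene of endosomal recycling, and Pttg1 (r = 0.85), securin.

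Il7r was nearest to Stat4 (r = 0.89), the transcription factor of IL-12 signalling, and Capn2 (r = 0.86), a calpain protease. Il10ra was nearest to Pim1 (r = 0.85), a kinase gene induced by STAT factors, and Lcp1 (r = 0.83), an actin-bundling protein of leukocytes. Il4ra was nearest to Trim27 (r = 0.87) and Sdhb (r = 0.80), Il1r2 to Grap2 (r = 0.84) and Dek (r = 0.80), and Il2rg to Arid5b (r = 0.82) and Psmb8 (r = 0.79). Ifngr2 was nearest to Idh3a (r = 0.82) and Ptges3 (r = 0.72). Il21r, with 4932438A13Rik (r = 0.76) and Zfand5 (r = 0.75), had the lowest r with its nearest gene among the 10 members. Among the members themselves Ifngr1 ran most closely with Il7r (r = 0.68) and most clearly opposite to Il6ra (r = -0.77).

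Of 18 genes for ligands of these receptors and related cytokines, Ifng and Il10 passed the threshold. Ifng, the ligand of the receptor that Ifngr1 belongs to, stood at 236, 108 and 191 FPKM in KO tumor and 166, 42.5 and 156 FPKM in WT tumor. It was listed at 13.9, 7.16, 1.001 and 23.8 FPKM in LN and 21.8, 0, 4.92 and 0 FPKM in spleen, so all tumor values were above all lymphoid values. The log2 difference was 5.65 ± 1.02 for KO tumor over spleen (limma adjusted p = 0.00508), 4.28 ± 1.02 for KO tumor over LN (adjusted p = 0.0268) and 4.94 ± 1.10 for WT tumor over spleen (adjusted p = 0.0351). For WT tumor against LN, Ifng was not called. The call over spleen held in KO tumor under every alternative. The call of KO tumor over LN was lost without LN 2, LN 3 or any 1 KO tumor library, and that of WT tumor over spleen without spleen 2, 3 or 4, LN 2 or any 1 WT tumor library (adjusted p up to 0.169 and 0.129 over the alternatives). Both were also lost with a pseudocount of 0.1, and that of WT tumor over spleen with array weights.

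**Figure D4:**
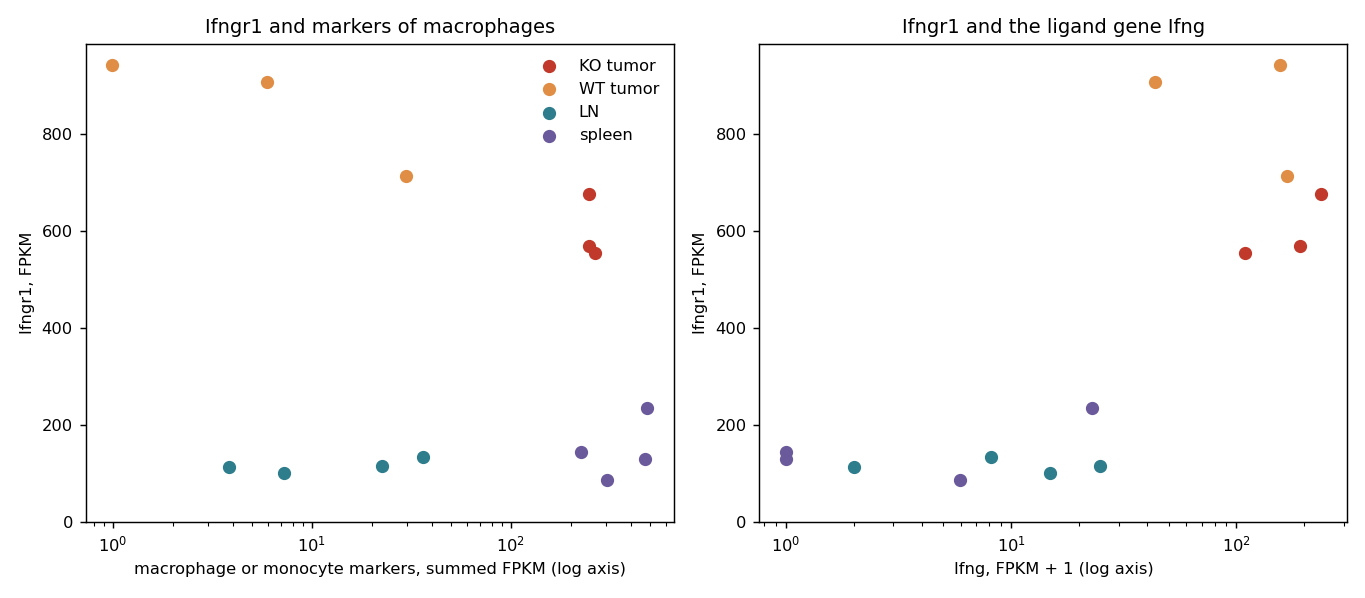
Ifngr1 (y axis, FPKM) against the summed FPKM of 12 macrophage or monocyte markers (left, log axis) and against Ifng (right, FPKM + 1, log axis) in the 14 libraries, coloured by group. WT tumor and LN overlap in marker sums (0.993 to 29.7 and 3.85 to 36.0 FPKM) and differ in Ifngr1, and both Ifngr1 and Ifng are higher in the 6 tumor libraries than in the 8 lymphoid ones.

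Il10, the ligand of the receptor chain encoded by Il10ra, had 52.6, 50.2 and 59.3 FPKM in KO tumor and 42.2, 12.8 and 23.4 FPKM in WT tumor, against 0.251, 0.452, 0 and 1.87 FPKM in LN. Its spleen values were 8.62, 12.5, 0.0553 and 40.4 FPKM, which overlapped with WT tumor. The difference from LN passed the threshold for KO tumor (5.18 ± 0.90, adjusted p = 0.00333, kept under every alternative) and for WT tumor (4.01 ± 0.99, adjusted p = 0.0442, lost without any 1 LN or WT tumor library or without spleen 1 or 2, up to 0.151 over the alternatives). The WT tumor call was also lost with a pseudocount of 0.1 or 5. The KO tumor values were above the WT tumor values, without passing the threshold (1.17 ± 0.51, adjusted p = 0.568), and LN differed from spleen by -2.52 ± 0.92 (adjusted p = 0.316). Il13, Il9, Il6, Il27 and Il1a were listed at 0 in every library.

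Among 18 partner receptor chains, Crlf2 and Ifnar1 passed the threshold in some comparisons. Of 14 tested, 1 was called higher for WT tumor against spleen, 1 for WT tumor against LN and 1 for KO tumor against LN. The shares of all genes called higher were 1.2%, 1.89% and 2.11%. None was called for KO tumor against spleen, where 2.8% of all genes were. Crlf2, which forms the TSLP receptor with the product of Il7r, stood at 35.5, 44.1 and 42.3 FPKM in KO tumor and 62.9, 103 and 40.3 FPKM in WT tumor, against 11.3, 22.0, 25.7 and 12.9 FPKM in LN and 13.9, 13.6, 21.4 and 11.6 FPKM in spleen. WT tumor was higher by 2.04 ± 0.47 than spleen (adjusted p = 0.0389) and by 1.85 ± 0.47 than LN (adjusted p = 0.0498). These calls were lost in 14 and 17 of 21 alternatives, for example without WT tumor 2 or 3, any 1 LN library, or spleen 1, 2 or 4, with adjusted p up to 0.150 and 0.188. The KO tumor difference from spleen was 1.40 ± 0.43 (adjusted p = 0.106).

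Ifnar1, a chain of the type I interferon receptor, had 11.1, 8.55 and 8.75 FPKM in KO tumor and 2.60, 2.51 and 5.29 FPKM in WT tumor, against 1.94, 0.189, 2.19 and 0.0418 FPKM in LN and 7.11, 4.12, 2.73 and 6.24 FPKM in spleen. KO tumor was higher than LN by 2.49 ± 0.59 (adjusted p = 0.0247), a call lost without LN 2, LN 4 or any 1 KO tumor library (adjusted p up to 0.108). The LN difference from spleen was -1.65 ± 0.59 (adjusted p = 0.306). Il9r had the smallest p of this list between the tumor genotypes (-1.85 ± 0.88, adjusted p = 0.614).

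Of 9 receptor chains for IL-12, IL-17 and TGF-beta, Il17rb, a chain of the IL-25 receptor, was called lower in both tumor groups than in LN. This was 1 of 5 tested chains in each comparison, where 1.31% of all genes were called lower for KO tumor and 1.14% for WT tumor. Il17rb was listed at 0, 0 and 0.141 FPKM in KO tumor and at 0 in all WT tumor libraries, against 11.2, 29.1, 1.67 and 5.65 FPKM in LN and 0.0367, 0, 1.89 and 0.0422 FPKM in spleen. The adjusted p was 0.0179 for KO tumor and 0.0381 for WT tumor. It was lost without any 1 KO tumor library in the first comparison and without any 1 WT tumor library or LN 1, 2 or 4 in the second (up to 0.0783 and 0.112). LN was higher than spleen in Il17rb without passing the threshold (2.76 ± 0.70, adjusted p = 0.131). Il12rb1 for WT tumor against spleen (1.08 ± 0.74, adjusted p = 0.561) and Il17ra for KO tumor against spleen and against WT tumor (-1.34 ± 0.49 and -1.05 ± 0.63, adjusted p = 0.195 and 0.727) were not called either.

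Of 16 kinases, STATs and adaptors that act directly below the receptors, Stat3 and Jak3 passed the threshold in KO tumor. The count was 1 of 16 called higher over spleen and 1 of 16 over LN, where 1.64% and 2.11% of all genes were. None of 16 passed for WT tumor against spleen or LN, where 1.9% and 3.04% of all genes did. Stat3, the main factor below the IL-6 and IL-10 receptors, stood at 49.6, 26.7 and 49.7 FPKM in KO tumor and 23.6, 24.1 and 25.1 FPKM in WT tumor, against 14.8, 19.5, 15.8 and 9.62 FPKM in LN and 4.79, 6.17, 7.32 and 12.7 FPKM in spleen. The tumor values all lay above the lymphoid values, and the call was that of KO tumor over spleen (2.32 ± 0.44, adjusted p = 0.00741), lost without KO tumor 3 and with only these groups in the fit (up to 0.0518). Jak3, the kinase of the common gamma chain, had 22.9, 41.2 and 32.5 FPKM in KO tumor and 38.0, 24.4 and 27.5 FPKM in WT tumor, against 12.9, 6.31, 10.3 and 3.14 FPKM in LN and 21.4, 10.2, 30.3 and 15.7 FPKM in spleen. KO tumor was higher than LN by 1.96 ± 0.51 (adjusted p = 0.0424), a call lost in 12 of 24 alternatives, among them without any 1 KO tumor library, without LN 2, 3 or 4, spleen 1 or 4, or WT tumor 4 (up to 0.189). LN differed from spleen in Jak3 by -1.19 ± 0.50 (adjusted p = 0.417).

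Stat4 did not pass the threshold. It had 40.3, 27.6 and 35.003 FPKM in KO tumor and 79.4, 67.3 and 59.6 FPKM in WT tumor, against 11.6, 30.0, 23.7 and 32.6 FPKM in LN and 23.5, 18.4, 22.1 and 30.5 FPKM in spleen. WT tumor lay above the other 3 groups, by 1.54 ± 0.42 over LN (adjusted p = 0.0688) and by 1.51 ± 0.42 over spleen (adjusted p = 0.0989) and KO tumor differed from WT tumor by -0.99 ± 0.39 (adjusted p = 0.510).

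None of 15 feedback inhibitors, which switch these receptors off, was called in any comparison. Only 10 to 13 of them were tested in a comparison, and 0.28 to 3.42% of all genes were called. At such shares a list of this size can hold no call, so the count says little about these genes. At an unadjusted limma p under 0.05 there were 3 of 11 for WT tumor against spleen and 1 of 11 against LN, where 14.3% and 15.6% of all genes were, and 1 of 13 for KO tumor against spleen and 0 of 13 against LN, with 13.9% and 13.1% of all genes. There was 1 of 10 for KO against WT tumor and 1 of 11 for LN against spleen, with 8.64% and 10.4% of all genes. The smallest p values belonged to Pias3 in the WT tumor comparisons (-2.79 ± 0.83 against spleen, adjusted p = 0.121, and -2.69 ± 0.83 against LN, adjusted p = 0.109) and to Socs2 in LN against spleen (1.38 ± 0.36, adjusted p = 0.133) and KO tumor against LN (-0.74 ± 0.36, adjusted p = 0.397). With a pseudocount of 0.1, Pias3 passed in both WT tumor comparisons (adjusted p = 0.0457 against spleen and 0.0380 against LN), while a pseudocount of 5 gave 0.272 and 0.255. Cish had the smallest p in KO tumor against spleen (1.06 ± 0.40, adjusted p = 0.218) and Socs3 in KO against WT tumor (-2.31 ± 0.80, adjusted p = 0.430).

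Of 19 target genes of these receptors, 16 were in the files and 4 passed the threshold. Pim1, a survival kinase, stood at 172, 118 and 143 FPKM in KO tumor and 132, 154 and 175 FPKM in WT tumor, against 25.6, 26.1, 30.0 and 11.8 FPKM in LN and 39.3, 62.6, 48.6 and 26.8 FPKM in spleen. It rose in all 4 tumor against lymphoid comparisons, by 2.64 ± 0.37 (adjusted p = 0.000610) in KO tumor and 2.73 ± 0.40 (adjusted p = 0.00190) in WT tumor over LN, both kept under every alternative. Over spleen the differences were 1.73 ± 0.37 in KO tumor (adjusted p = 0.0163, lost without KO tumor 1 or 3, up to 0.0873) and 1.83 ± 0.40 in WT tumor (adjusted p = 0.0344, lost in 12 of 21 alternatives, up to 0.109, including without any 1 WT tumor library, spleen 1, 3 or 4, or LN 1 or 2). Bcl2, the survival gene known to follow IL-2 and IL-7 signals, had 9.08, 14.5 and 7.32 FPKM in KO tumor and 6.28, 13.6 and 6.08 FPKM in WT tumor, against 48.4, 59.6, 50.1 and 49.1 FPKM in LN and 27.8, 40.3, 51.6 and 74.6 FPKM in spleen. It fell in the same 4 comparisons, by 2.27 ± 0.43 and 2.53 ± 0.43 on the log2 scale against LN (adjusted p = 0.00628 in KO and 0.00481 in WT tumor, kept under every alternative) and by 2.096 ± 0.43 and 2.36 ± 0.43 against spleen (adjusted p = 0.0132 in KO tumor, lost without KO tumor 1 or 3 or with only these groups in the fit, up to 0.0717, and 0.0135 in WT tumor, lost without WT tumor 2 and with only these groups in the fit, adjusted p = 0.0529 and 0.0779).

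Cxcl10, a chemokine gene induced by interferons, stood at 77.4, 16.6 and 5.94 FPKM in KO tumor and 31.6, 17.5 and 46.3 FPKM in WT tumor, against 0.401, 6.53, 0.0306 and 0 FPKM in LN and 2.94, 14.4, 18.1 and 8.14 FPKM in spleen. It was higher than LN by 4.07 ± 0.80 in WT tumor (adjusted p = 0.0117), lost without WT tumor 4, and by 3.55 ± 0.87 in KO tumor (adjusted p = 0.0328), where 1 KO and 1 LN library overlapped, lost without KO tumor 1 or 2 or LN 1, 3 or 4 (up to 0.0518 and 0.212). Junb, an AP-1 gene that is also on the immediate early list, had 76.6, 69.1 and 55.5 FPKM in KO tumor and 23.7, 97.0 and 95.2 FPKM in WT tumor, against 11.5, 8.71, 11.97 and 5.001 FPKM in LN and 12.9, 35.05, 23.2 and 26.7 FPKM in spleen. It was higher than LN by 2.77 ± 0.52 in KO tumor (adjusted p = 0.00531, kept under every alternative) and by 2.64 ± 0.57 in WT tumor (adjusted p = 0.0203, lost without WT tumor 3 or 4 or LN 2 or 4, up to 0.0983). Gbp2, an interferon-induced GTPase, in LN against spleen (1.46 ± 0.38, adjusted p = 0.145) and Batf, an AP-1 factor of effector Tregs, in KO against WT tumor (-1.30 ± 0.60, adjusted p = 0.587) had the smallest p of the list in those comparisons.

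By list, 1 of 6 tested ligands was called higher for WT tumor against spleen and 1 of 6 against LN, where 1.2% and 1.89% of all genes were. The count was 1 of 7 for KO tumor against spleen and 2 of 7 against LN, where 1.64% and 2.11% of all genes were called higher, and no ligand was called lower. The target genes had 1 higher and 1 lower call of 16 against spleen and 3 higher and 1 lower of 16 against LN, in both tumor groups, and the shares of all genes called lower were 0.707% and 1.14% for WT tumor and 1.16% and 1.31% for KO tumor against spleen and LN. The medians of all genes, to be read beside those of the lists, were -0.07 and -0.12 for WT tumor and 0.02 and -0.01 for KO tumor against spleen and LN. The targets' median log2 difference was 0.66 for KO tumor and 0.68 for WT tumor against spleen, and 0.46 for KO tumor and 0.71 for WT tumor against LN. The 16 kinases, STATs and adaptors had medians of 0.55 and 0.56 for KO tumor against spleen and LN, and 0.45 and 0.52 for WT tumor against spleen and LN, while the feedback inhibitors lay at -0.24 to -0.01 in these 4 comparisons. The medians of the tested partner chains were 0.30 and 0.42 for KO tumor and 0.41 and 0.20 for WT tumor against spleen and LN, and the chains for IL-12, IL-17 and TGF-beta lay at -0.82 to -0.35. No gene of the 6 lists was called for KO against WT tumor or for LN against spleen, where 0.28% and 0.499% of all genes were. At an unadjusted limma p under 0.05 there were 1 of 4 ligands, 1 of 16 kinases, STATs and adaptors and 1 of 10 feedback inhibitors for KO against WT tumor, and 0 in the other 3 lists, with 8.64% of all genes. For LN against spleen there were 1 of 6 ligands, 1 of 14 partner chains, 2 of 5 chains for IL-12, IL-17 and TGF-beta, 1 of 16 kinases, STATs and adaptors, 1 of 11 feedback inhibitors and 5 of 16 target genes, with 10.4% of all genes. Beside the left-out libraries named above, fitting only the groups compared ended the calls of Ifng, Bcl2, Pim1 and Crlf2 for WT tumor against spleen, Il17rb and Crlf2 for WT tumor against LN, Bcl2 and Stat3 for KO tumor against spleen and Cxcl10, Il17rb and Jak3 for KO tumor against LN. Leaving off the filter ended those of Ifng, Pim1 and Crlf2 for WT tumor against spleen, Il10, Junb, Il17rb and Crlf2 for WT tumor against LN and Ifng, Cxcl10 and Jak3 for KO tumor against LN. Beside Ifng and Il10 as given above, a pseudocount of 0.1 ended that of Crlf2 for WT tumor against LN. A pseudocount of 5 ended those of Il17rb for WT tumor against LN and of Cxcl10 and Il17rb for KO tumor against LN. Array weights also ended those of Pim1 and Crlf2 for WT tumor against spleen and of Il17rb and Crlf2 for WT tumor against LN.

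**Figure D5:**
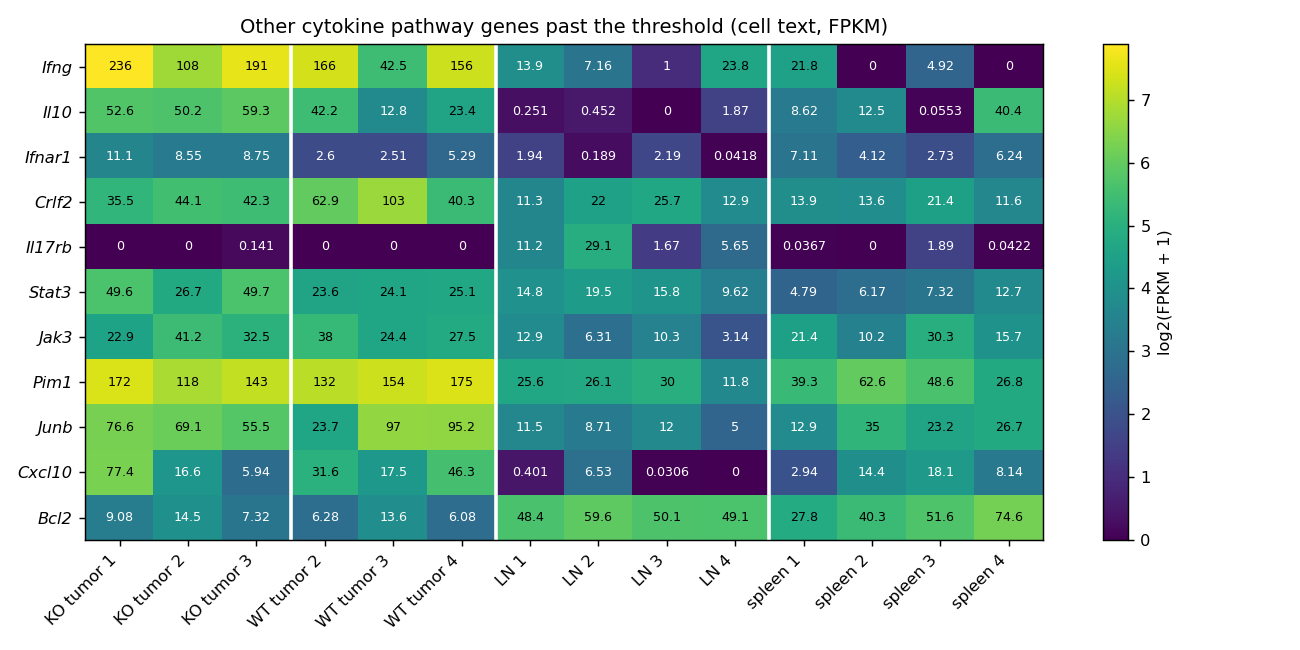
Heat map of log2(FPKM + 1) of the 11 other cytokine pathway genes that passed the threshold in at least 1 comparison (rows), by library (columns, grouped as KO tumor, WT tumor, LN and spleen); the figures in the cells are FPKM. Ifng and Pim1 are higher and Bcl2 is lower in all 6 tumor libraries than in all 8 lymphoid libraries.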

How the data were processed

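RNA of sorted Foxp3-YFP+ cells was sequenced in 14 Smart-Seq2 libraries. The authors deposited 1 FPKM value per gene and library. Cufflinks 2.2.1, Cuffdiff, TopHat2 2.1.1, Bowtie2 2.2.9, Trimmomatic and DESeq2 are listed in the submitters' processing notes, with no role or order, along with the mouse build mm10. No strand setting is given in the sources used here. FPKM is relative to each library's total, so abundant transcripts lower the values of all others. Symbols and positions came from the deposited names and GENCODE M21 (22196 of 22255 IDs matched).

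The members and gene lists were chosen with earlier results of these data known. Genes of at least 1 FPKM in at least 3 libraries of a fit entered limma 3.58.1 (R 4.3.3, trend and robust options) on log2(FPKM + 1) of the deposited values, so fold changes of low genes are understated. Benjamini-Hochberg adjustment covered all tested genes, with a threshold of 0.05. WT tumor, LN and spleen shared 1 fit (9616 genes), KO and WT tumor had their own (8210), and KO tumor was set against LN and spleen in a fit of all 14 libraries (10147). All members had a two-sided exact permutation test in R 4.3.3. Its p is given for Ifngr2 where it was below the filter. It is also given for Ifngr1 in KO against WT tumor and for Ifngr2 in KO tumor against spleen. Levels and correlations were computed in Python 3.11.15. In all lists the genes past the threshold are named, and otherwise the gene of smallest p in each comparison, along with the 2 genes nearest in pattern to each member. The scripts were tested on simulated data. Depth was estimated from steps in low FPKM values, of which 92.7 to 96.0% were whole reads within 0.1, and intervals and floors cover counting error only. Alternatives covered pseudocounts, filters, scaling, array weights, the groups in the fit, the robust option, a replicate block and each library left out. They were added for the pathway genes after seeing the data.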

Additional observations from a re-analysis of the deposited data

Results flagged for a closer look

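Among 42 groups of 4 libraries over the 10 receptor and 11 called pathway genes, 4 held a library far from its group in FPKM. The rule flags about 1 group in 20 by chance only where values are normally distributed. The flagged groups of Ifngr2, Cxcl10 and Il17rb hold values at or near 0, so the count of 4 cannot be set against that rate. For Ifngr2, LN 4 at 3.75 FPKM was far above the other LN libraries. For Bcl2 and Cxcl10, LN 2 was the high one, at 59.6 and 6.53 FPKM, although the other Bcl2 values in LN were 48.4, 50.1 and 49.1 FPKM. For Il17rb, spleen 3 at 1.89 FPKM stood above spleen libraries at or below 0.0422 FPKM.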

How the results depend on the processing

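The 4 Ifngr1 calls were kept under every alternative (adjusted p up to 0.00756). Of 546 member values under settings other than leaving out a library, 542 kept their direction and side of the threshold, Il6ra for KO tumor against LN passed in 2, and Il2rg for WT tumor against LN turned to -0.0532 with the protein-coding total and -0.0024 with median ratio scaling. Leaving out 1 library turned 17 of 625 member values, none of them called. The ranges were -0.77 to 1.17 (Il21r, WT tumor against spleen), -0.18 to 0.42 (Il2rg, WT tumor against LN), -0.55 to 1.38 (Il21r, WT tumor against LN), -0.50 to 0.0121, -0.0386 to 0.48, -0.90 to 0.19 and -0.12 to 0.62 (Il7r, Il4ra, Il21r and Il18r1, LN against spleen), -0.0921 to 0.50, -0.23 to 0.35 and -1.76 to 0.17 (Il2rg, Il10ra and Il21r, KO against WT tumor), -0.40 to 0.21 (Il4ra, KO tumor against spleen) and -0.0445 to 0.39 (Ifngr2, KO tumor against LN).

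The number of genes called moved more. WT tumor against spleen gave 183, but 112 with no filter, 107 with array weights and 87 with only these groups in the fit, LN against spleen 48 but 16 with no filter, KO against WT tumor 23 but 0 with no filter (769 of 15208 genes at an unadjusted limma p under 0.05), and KO tumor against spleen 284 but 185 with only these groups. The cause was not tested. Leaving out 1 library gave 82 to 173 for WT tumor against spleen (82, 89 and 111 without WT tumor 2, 3 and 4), 183 to 309 for WT tumor against LN (184 without LN 2, 183 without WT tumor 3), 13 to 56 for LN against spleen (29 without spleen 2 or 4, 31 or fewer without any 1 LN library), 9 to 15 for KO against WT tumor, 158 to 318 for KO tumor against spleen and 203 to 355 for KO tumor against LN (low without any 1 KO tumor library against spleen and without KO tumor 1 or 2 against LN). In WT tumor against LN 62.3% of calls were higher, and 51.6% with the protein-coding total. Same-numbered libraries did not deviate together more than others (18 pairs, r -0.028 to 0.030, against 55 pairs, r -0.033 to 0.030). With 3 or 4 libraries a group this cannot decide whether the numbers mark pairs, and the labels do not say what they mark. A replicate block gave 89 calls for WT tumor against spleen, 186 against LN, 20 for LN against spleen and 6 for KO against WT tumor. Among called pathway genes, 46 of 240 values lost their call under other settings and 87 of 303 without 1 library. Fitting only the groups compared was the same fit for KO against WT tumor. Depth limits Ifngr2 in the 4 libraries at 0 or about 3.41 and 3.42 reads.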

Other observations

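Il6st, which encodes gp130, the signalling chain that IL6RA needs, was chosen from the genes of the 6 lists after its values were seen. It stood at 9.27, 3.35 and 9.11 FPKM in KO tumor and 7.42, 4.05 and 1.93 FPKM in WT tumor, against 14.6, 15.03, 18.7 and 17.5 FPKM in LN and 11.7, 17.2, 18.3 and 18.1 FPKM in spleen. Every tumor value was below every lymphoid value, a pattern found in 0.68% of 10147 genes, and no comparison passed the threshold. Maf, a transcription factor gene tied to IL-10 production, was also chosen after its values were seen. It stood at 42.5, 37.2 and 38.3 FPKM in KO tumor and 38.2, 37.3 and 37.9 FPKM in WT tumor, against 18.7, 12.6, 15.3 and 19.1 FPKM in LN and 25.9, 21.2, 19.5 and 32.3 FPKM in spleen. The tumor values lay above the lymphoid values, a pattern found in 1.8% of 10147 genes, without a call in any of the 6 comparisons.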
